A study of Xenopus tropicalis with 44 samples.

Results

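The comparison set untreated wild-type (WT) Xenopus tropicalis (western clawed frog) embryos at stage 6 against untreated WT embryos at stage 3, the 4-cell stage. Each stage had 2 mRNA-seq libraries made from embryos with no injection or other treatment, so 4 of the 44 libraries of the series entered the contrast, and they were chosen by their stage and genotype labels alone. Stages 4 and 5, the 8- and 16-cell WT embryos, lie between and are used for the course. Embryos injected with a morpholino, an antisense oligomer that blocks an mRNA, against the cell cycle transcription factor E2F1 (E2F1 MO) are used as a second set of libraries at stages 3 and 6, with 2 libraries each. The labels give neither the clutch nor the number of embryos behind a library. The p-values speak only for the spread between replicate libraries, estimated over all 44 libraries of the series. Part or all of that spread may be technical.

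A frog egg is loaded with mRNA during oogenesis, and the embryo then cleaves rapidly, with little transcription of its own, until the mid-blastula. Over this window the use of stored RNAs is set largely by the length of their poly(A) tails, which are trimmed or extended by factors bound to the 3' ends. Cyclins, spindle motors and replication factors stored in the egg serve the short cycles of alternating S phase and mitosis. The labels name total RNA and an mRNA library kit and do not say whether RNA was selected by its poly(A) tail. If it was, more or less RNA and a larger or smaller share of it captured through the tail cannot be told apart, so "rose" and "fell" below are statements about the RNA measured in the library.

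Depth was even, with 19800105 and 21691348 counts in the stage 3 libraries and 20334331 and 21856040 in the stage 6 libraries. A floor of 3 counts corresponded to 0.138 to 0.193 CPM in these libraries. CPM is the count relative to the library size after edgeR's TMM scaling. Of the 28778 genes in the table, 16064 had enough counts to be tested and 12227 had no count in any of the 4 libraries. TMM factors were 0.787 and 0.771 in the earlier libraries and 0.998 and 0.993 in the later ones, so the split into higher and lower depends on the scaling. With total counts alone the median log2 change of all genes tested was 0.30 rather than 0. Changes below are relative to the TMM scaling, whose median change was 0. Of 32 marker genes of blood, liver, ovarian follicle, sperm, skin and leukocytes, 19 had no count in the 4 libraries, and the summed level of the list was 1.67 and 1.44 CPM at stage 3 and 1.23 and 1.29 CPM at stage 6.

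Between the 4-cell stage and stage 6 the stored RNA population was reshaped in both directions. Of cyclins and mitotic kinases, 30 (58.8%) were called lower and 10 (19.6%) higher, against 23.5 and 24.5% of all genes tested. This side was kept with total counts alone, by 28 to 17. Among genes near the median level of this list, 62.6% were lower. Rises outnumbered falls among genes of ribosome assembly (95 to 21), tRNA charging (22 to 4), the proteasome (21 to 3) and zinc-finger proteins (88 to 27), also with total counts alone. The lists of ribosome assembly, tRNA charging and zinc-finger proteins were added after the fit had been seen. Their counts are descriptions and not a test. Among genes near the median level of the zinc-finger list, 48.9% were higher and 20.3% lower, close to that list's 50.3 and 15.4%. In all, 7726 of 16064 genes were called at an edgeR adjusted p under 0.05, which is 48.1% of those tested. Of these, 3943 (24.5%) were higher and 3783 (23.5%) lower at stage 6, so 51.0% of calls were higher. With total counts alone as scaling, 6264 genes were higher and 1872 lower, and 77.0% of calls were higher. Large changes were mostly rises under the TMM scaling, as 1296 genes (8.07%) were called higher by 2-fold or more and 436 (2.71%) lower by 2-fold or more.

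Few RNAs crossed 1 CPM or passed between no count and 10 or more counts. Of the genes tested, 10735 stood at 1 CPM or more at both stages, 361 crossed 1 CPM upwards and 148 crossed it downwards. In the whole table, 22 genes had no count at stage 3 and 10 or more at stage 6, and 8 genes showed the reverse. The largest stage 6 total among those 22 was 33 counts over both libraries. The genes called higher took 10.4 and 9.99% of all counts at stage 3 and 19.6 and 19.5% at stage 6, while the genes called lower took 75.6 and 76.1% and then 62.8 and 63.0%. These shares describe the libraries whose means made the contrast. In the E2F1 MO libraries, which entered the common fit but not the contrast, the same genes called higher went from 11.9 and 10.9% to 21.1 and 20.4%, and those called lower from 72.9 and 74.4% to 60.8 and 61.9%.

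The 12 largest rises among RNAs of at least 5 CPM were spread over many functions. RNA of dpp8, a cytosolic dipeptidyl peptidase, measured 10.3 and 9.69 CPM in the stage 3 libraries and 48.1 and 51.2 CPM in the stage 6 libraries, a 4.96-fold rise (log2 change 2.31 ± 0.11, edgeR adjusted p = 7.6e-22; ± is the standard error throughout). RNA of arl9, a small GTPase of the ARF-like family, measured 10.01 and 9.63 CPM in the stage 3 libraries and 45.4 and 51.9 CPM in the stage 6 libraries (log2 change 2.31 ± 0.13, edgeR adjusted p = 9e-19). RNA of rrp15, a factor of large ribosomal subunit assembly, measured 7.18 and 6.82 CPM in the stage 3 libraries and 34.97 and 33.7 CPM in the stage 6 libraries (log2 change 2.29 ± 0.13, edgeR adjusted p = 3e-18). The rule that picked the 12 required that the libraries of the stages did not overlap. The largest log2 change of the 12 was that of rnf145l, from 0.686 to 5.23 CPM on average (log2 change 2.93 ± 0.28, edgeR adjusted p = 4.3e-12). The DNA damage ubiquitin reader rnf169 rose by 2.47, the ribosome assembly gene ppan by 2.30, the copper transporter gene atp7a by 2.25 and c2cd5 by 2.25 on the log2 scale. Further down among the 12 were cdip1, the kinase gene rps6ka1 and the F-box gene fbxo21, with log2 changes of 2.14 to 2.21 and edgeR adjusted p of at most 9.3e-14.

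The 12 largest falls included genes of the centriole and spindle. RNA of cep135, a centriole protein gene, measured 453 and 467 CPM in the stage 3 libraries and 82.1 and 78.9 CPM in the stage 6 libraries, which is 5.71-fold lower (log2 change -2.51 ± 0.08, edgeR adjusted p = 7.8e-27). RNA of kif2c, which encodes a kinesin that takes microtubules apart, measured 1266 and 1210.0 CPM in the stage 3 libraries and 273 and 267 CPM in the stage 6 libraries (log2 change -2.20 ± 0.06, edgeR adjusted p = 4.4e-29). RNA of kif11, the motor that pushes spindle poles apart, measured 1070.3 and 1020.5 CPM in the stage 3 libraries and 236 and 232 CPM in the stage 6 libraries (log2 change -2.16 ± 0.07, edgeR adjusted p = 9.3e-26). Replicates lay close together in these genes, while the lack of overlap between the stages was required by the rule that picked the 12. The ubiquitin ligase gene trim37, which restrains centrosome assembly, fell by 2.25, the autophagy kinase gene ulk1 by 2.22, the histone demethylase gene kdm7a by 2.13, the kinase gene melk by 2.07 and the nuclear receptor gene nr1d1 by 2.01 on the log2 scale. The adaptor gene ap1m2 fell the most, by 2.66 (edgeR adjusted p = 6.4e-12), from 16.7 to 2.65 CPM on average, and atp13a4 and amotl2 were also among the 12. The remaining gene, the endoderm transcription factor gata6, rested on 1 library: it measured 22.8 and 8.01 CPM in the stage 3 libraries and 3.99 and 2.21 CPM in the stage 6 libraries (log2 change -2.31 ± 0.62, edgeR adjusted p = 0.0031), and without stage 3 replicate 1 its log2 change was -1.39 (adjusted p = 0.16).

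Ranked by the change in CPM within a gene, the losses led. RNA of dnmt1, the maintenance DNA methyltransferase, measured 5872 and 6352 CPM in the stage 3 libraries and 2889 and 2873 CPM in the stage 6 libraries (log2 change -1.08 ± 0.08, edgeR adjusted p = 3.3e-12). The condensin gene ncapd2 went from 4549.5 to 1874 CPM on average, the ribonucleotide reductase gene rrm2.2 from 4689 to 2739.7, rcbtb1 from 3035 to 1047 and spsb1 from 3112 to 1270.1. These losses, like the gains below, were taken from the called genes alone, so their calls follow from that choice. The largest gains were those of btg5.1, from 473 to 825 CPM, plekha4, from 116 to 418, the helicase gene ddx5, from 1255 to 1536, nucleolin (ncl), from 382 to 655, and the chromatin remodeller smarca5, from 315 to 579. Of these, plekha4 had the largest ratio (log2 change 1.85) and ddx5 the smallest (0.29).

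Stages 4 and 5, whose means lie outside the contrast although their libraries entered the common fit, mostly lay in order between the ends. The WT means fell step by step over stages 3, 4, 5 and 6 in 3076 of the 3783 genes called lower (81.3%) and rose step by step in 2902 of the 3943 called higher (73.6%). Among all 11031 genes tested at 1 CPM or more in E2F1 MO libraries, 56.9% were ordered in either direction. Under total-count scaling, 42.2% of the genes called lower, 89.3% of those called higher and 58.3% of all were ordered in either direction. The calls here are those of the TMM scaling, so the 42.2% can include genes that rose at every step. Under the TMM scaling the median step of the genes called higher was 0.19 from stage 3 to 4, 0.32 from stage 4 to 5 and 0.23 from stage 5 to 6 on the log2 scale, and that of the genes called lower was -0.15, -0.26 and -0.16. The middle step, between the 8- and 16-cell embryos, was thus the largest in the median in both directions. RNA of kif2c, for example, passed through 918 and 505 CPM at stages 4 and 5, and that of arl9 through 15.8 and 28.4 CPM. At stage 7 kif2c stood at 187 CPM and arl9 at 57.97 CPM.

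**Figure D1:**
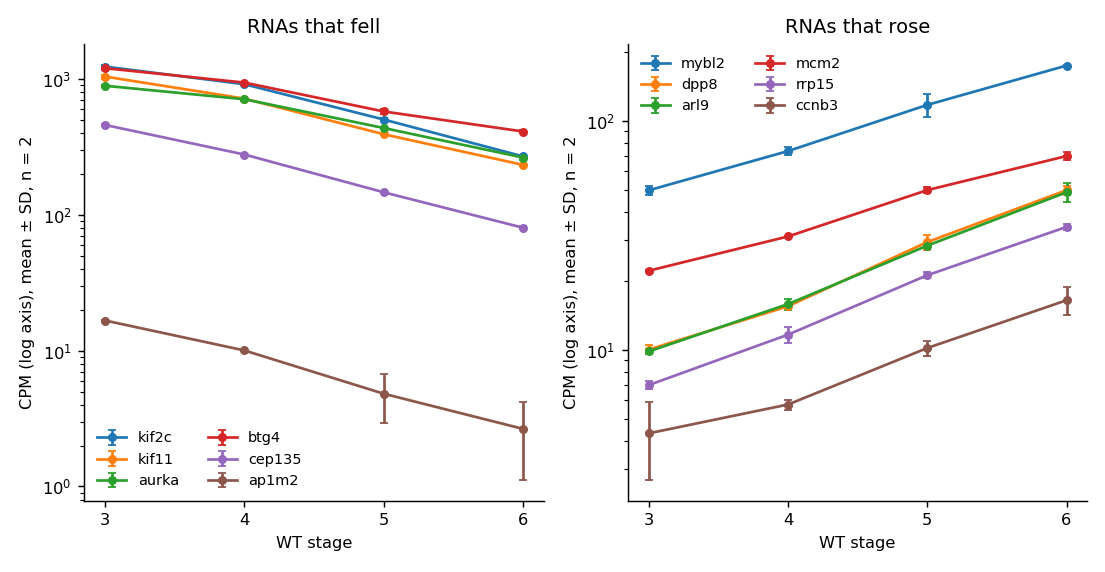
Levels over WT stages 3 to 6 (x axis) in CPM on a log axis (points are means and bars SD of 2 libraries) for 6 RNAs that fell (left) and 6 that rose (right). Each line runs in one direction over all 4 stages, and kif2c goes from 1238 to 269.9 CPM while arl9 goes from 9.82 to 48.6 CPM.

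Among cyclins and mitotic kinases, falls outnumbered rises. Of 51 genes tested, 30 (58.8%) were called lower and 10 (19.6%) higher, against 23.5 and 24.5% of all genes, and the median log2 change was -0.57 against 0.00. Under total-count scaling 28 were lower and 17 higher. Genes near the median level of this list were lower in 62.6% of cases and higher in 15.7%. RNA of aurka, the spindle pole kinase Aurora A, measured 902 and 887 CPM in the stage 3 libraries and 272 and 257 CPM in the stage 6 libraries (log2 change -1.76 ± 0.07, edgeR adjusted p = 1.2e-23). RNA of plk1, the polo kinase of mitotic entry, measured 2075 and 2106 CPM in the stage 3 libraries and 917 and 917 CPM in the stage 6 libraries (log2 change -1.19 ± 0.05, edgeR adjusted p = 2e-22). RNA of cdk1, the mitotic cyclin-dependent kinase, measured 289 and 266 CPM in the stage 3 libraries and 108 and 111 CPM in the stage 6 libraries (log2 change -1.34 ± 0.09, edgeR adjusted p = 1.7e-15). The kinases thus stood at less than their stage 3 level in every stage 6 library. The cyclins fell as well. RNA of ccnb1 measured 3511 and 3659 CPM in the stage 3 libraries and 2169 and 2233 CPM in the stage 6 libraries (log2 change -0.70 ± 0.06, edgeR adjusted p = 2.5e-12), and the log2 changes of ccnb2, ccna1, ccna2 and ccne1 were -0.69, -0.61, -0.52 and -0.72 (adjusted p of at most 4.6e-11). The B cyclin gene ccnb1.2 changed by -0.70, but reads of near-identical copies may be split between these names. Aurkb, cdk2 and plk3 changed by -1.25, -1.40 and -1.54, and cdc20, the activator of the anaphase-promoting complex, by -0.72.

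The regulators of the inhibitory phosphate on Cdk1 split by gene. RNA of wee2, the embryonic Wee1-type kinase, fell from 2292 to 1355 CPM (log2 change -0.76, edgeR adjusted p = 1e-15), and cdc25a, the phosphatase that removes this phosphate, from 1984 to 1439 CPM (log2 change -0.46). Pkmyt1, the membrane-bound kinase of the same site, rose from 16.1 to 33.8 CPM (log2 change 1.07, edgeR adjusted p = 9.1e-13). Wee1 itself measured 2.63 and 2.33 CPM in the stage 3 libraries and 2.46 and 2.12 CPM in the stage 6 libraries and was not called (adjusted p = 0.77). Some cyclins rose. RNA of ccnb3 measured 5.45 and 3.17 CPM in the stage 3 libraries and 18.03 and 14.8 CPM in the stage 6 libraries (log2 change 1.94 ± 0.17, edgeR adjusted p = 2.2e-12). RNA of ccnf went from 5.06 to 16.7 CPM on average (log2 change 1.72 ± 0.16, edgeR adjusted p = 6e-12). In both genes the stage 6 libraries lay above the stage 3 libraries without overlap. The G1 cyclin gene ccnd2 rose by 0.53.

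Kinesins, kinetochore and condensin genes followed with 39 of 69 (56.5%) lower and 19 (27.5%) higher, and a median of -0.40. Under total-count scaling 30 were lower and 29 higher. Genes near the median level of this list were lower in 62.6% of cases and higher in 15.7%. Besides kif2c and kif11, the chromokinesin gene kif4a fell from 1180.1 to 297 CPM (log2 change -1.99, edgeR adjusted p = 6.1e-26), and cenpe, the kinetochore motor, from 1786 to 472 CPM (log2 change -1.92, adjusted p = 1.8e-11). The spindle checkpoint gene mad2l1 measured 294 and 293 CPM in the stage 3 libraries and 82.8 and 80.6 CPM in the stage 6 libraries (log2 change -1.85 ± 0.08, edgeR adjusted p = 4.8e-22). Topoisomerase II (top2a) and the condensin I and II subunit genes did not all move together: top2a changed by -1.09 and ncapd2 by -1.28, and ncapg2 and ncapd3 were among the risers.

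Centrosome and centriole genes, a family added after the fit had been seen, had 38 of 81 members (46.9%) lower and 23 (28.4%) higher, with a median of -0.14. The direction of the family turned with total counts alone, when 36 were higher and 30 lower. Of its members, sass6, stil, plk4, cenpj, cep152, cep192 and ccp110 were called lower under both scalings. RNA of sass6, which forms the cartwheel of the new centriole, measured 788 and 828 CPM in the stage 3 libraries and 297 and 301 CPM in the stage 6 libraries (log2 change -1.43 ± 0.06, edgeR adjusted p = 1.5e-22). RNA of stil measured 2001 and 2172 CPM in the stage 3 libraries and 646 and 659 CPM in the stage 6 libraries (log2 change -1.68 ± 0.06, edgeR adjusted p = 6.8e-25). The kinase gene plk4, which starts duplication, went from 50.6 to 24.8 CPM (log2 change -1.03), and cenpj, cep152, cep192 and ccp110 changed by -1.12, -1.49, -1.28 and -1.85. Among the risers, ninl, a ninein-like centrosome gene, went from 24.8 to 84.5 CPM (log2 change 1.77, adjusted p = 1.5e-14). Plk4, sass6 and cenpj were named after their values had been seen.

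DNA replication genes moved in both directions. Of 77 tested, 32 (41.6%) were called lower and 27 (35.1%) higher, with a median of -0.10, and under total-count scaling 25 were lower and 44 higher. On the falling side, clspn, the adaptor through which ATR activates Chk1, measured 2454 and 2751 CPM in the stage 3 libraries and 1052 and 1102 CPM in the stage 6 libraries (log2 change -1.27 ± 0.07, edgeR adjusted p = 6.6e-18). The licensing factor gene cdc6 measured 2421 and 2469 CPM in the stage 3 libraries and 1469.5 and 1562 CPM in the stage 6 libraries (log2 change -0.69 ± 0.04, edgeR adjusted p = 2.9e-17). The checkpoint kinase gene chek1 measured 325 and 313 CPM in the stage 3 libraries and 202 and 191 CPM in the stage 6 libraries (log2 change -0.70 ± 0.06, edgeR adjusted p = 2.7e-13). All 3 were lower in both stage 6 libraries than in either stage 3 library.

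Of the initiation factors known in Xenopus laevis to become limiting at the mid-blastula, ticrr (Treslin) changed by -1.09 and recql4 and topbp1 (Cut5) by -0.39 and -0.30 (adjusted p of 6.8e-17, 8e-05 and 3.1e-05 by edgeR). Under total-count scaling recql4 was at -0.03 (adjusted p = 0.82) and topbp1 at 0.05 (adjusted p = 0.46), so only the call on ticrr, among these 3, held under both scalings. The replicative helicase component cdc45 changed by -0.79, the kinase activator gene dbf4 by -0.50, rif1 by -0.68 and the polymerase alpha gene pola1 by -1.50. The licensing factor gene cdt1 measured 784 and 791 CPM in the stage 3 libraries and 782 and 826 CPM in the stage 6 libraries and was not called (adjusted p = 0.74), but with total counts alone it was called higher (0.38).

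On the rising side, mybl2, the B-Myb transcription factor of S phase and mitosis genes, measured 51.1 and 48.1 CPM in the stage 3 libraries and 173 and 175 CPM in the stage 6 libraries (log2 change 1.81 ± 0.10, edgeR adjusted p = 2.1e-15). RNA of pcna, the sliding clamp, measured 16.9 and 12.9 CPM in the stage 3 libraries and 33.5 and 33.5 CPM in the stage 6 libraries (log2 change 1.17 ± 0.14, edgeR adjusted p = 9.3e-09). RNA of mcm2, a subunit of the replicative helicase, measured 22.2 and 22.01 CPM in the stage 3 libraries and 68.02 and 71.99 CPM in the stage 6 libraries (log2 change 1.66 ± 0.10, edgeR adjusted p = 1.5e-17). Each was higher in both stage 6 libraries than in either stage 3 library. Subunits of 1 complex took different directions. In the helicase, mcm4 changed by 0.67 and mcm7 by -0.50. In ribonucleotide reductase, the large subunit gene rrm1 went from 19.6 to 51.7 CPM (log2 change 1.40) while rrm2.2 changed by -0.78. The polymerase genes pold2 and pole3 and the single-strand binding gene rpa1 rose by 1.40, 1.68 and 1.33. Apart from cdt1, recql4 and topbp1, the direction and call of each replication gene named here held with total counts alone.

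**Figure D2:**
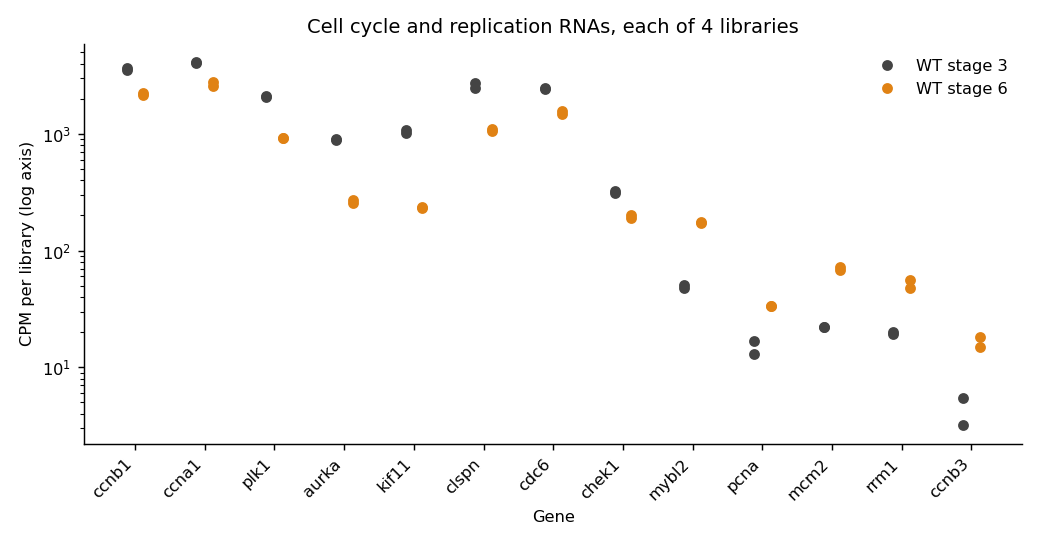
CPM per library on a log axis for 13 cell cycle and replication RNAs (x axis), with stage 3 libraries in dark grey and stage 6 libraries in orange. In the 8 genes on the left, from ccnb1 to chek1, the stage 6 points lie below the stage 3 points, and in the 5 on the right, from mybl2 to ccnb3, they lie above them.

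Oocyte maturation and egg factors were mixed, with 14 of 33 (42.4%) lower and 8 (24.2%) higher, a median of -0.15, and 8 lower and 16 higher with total counts alone. RNA of btg4, an adaptor that in mouse recruits the deadenylase to maternal mRNA, measured 1226 and 1184 CPM in the stage 3 libraries and 405 and 418 CPM in the stage 6 libraries (log2 change -1.55 ± 0.07, edgeR adjusted p = 1e-22). RNA of fbxo43 (Emi2), the inhibitor that holds the egg at metaphase II, measured 1374 and 1433 CPM in the stage 3 libraries and 596 and 632 CPM in the stage 6 libraries (log2 change -1.19 ± 0.06, edgeR adjusted p = 1.5e-19). RNA of mos, the kinase at the head of the cytostatic MAPK cascade, measured 189 and 152 CPM in the stage 3 libraries and 123 and 114 CPM in the stage 6 libraries (log2 change -0.52 ± 0.09, edgeR adjusted p = 1.1e-05), and its call was lost with total counts alone (-0.17, adjusted p = 0.17). Stage 6 libraries were the lower ones in all 3. The oocyte linker histone gene h1-8 fell from 1949 to 1213 CPM (log2 change -0.68) and the embryonic poly(A)-binding protein gene pabpc1l by 0.70. In the other direction, zar1 rose from 3.09 to 9.76 CPM (log2 change 1.65, adjusted p = 3.6e-10) and the oocyte growth factor gene gdf9 from 35.5 to 82.1 CPM (log2 change 1.21). The related zar1l fell by 0.52. The kinase gene rps6ka1, which acts below Mos and MAPK, was among the largest rises and went from 3.16 to 14.4 CPM.

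Genes of mRNA storage and translational control moved both ways in near-equal numbers, with 25 of 63 (39.7%) lower and 23 (36.5%) higher and a median of -0.09, while with total counts alone 15 were lower and 35 higher. RNA of cpeb1, which binds the cytoplasmic polyadenylation element, measured 1075 and 1106 CPM in the stage 3 libraries and 828 and 849.6 CPM in the stage 6 libraries (log2 change -0.38 ± 0.08, edgeR adjusted p = 0.00032), and with total counts alone it was not called (-0.02, adjusted p = 0.92). The related cpeb4 changed by -0.69, the cytoplasmic poly(A) polymerase gene tent2 by -0.74 and the germline cap-binding gene eif4e1b by -0.44, the last of which lost its call with total counts alone. The RNA helicase gene ddx6, a partner of the CPEB repressor complex, went from 38.3 to 81.5 CPM (log2 change 1.09), the 4E-T gene eif4enif1 from 56.2 to 139 CPM (edgeR adjusted p = 1.8e-19) and the mRNA packaging gene ybx1 from 345 to 576 CPM (log2 change 0.74). The cleavage and polyadenylation genes sympk and cpsf1 rose by 1.69 and 1.41 from under 10 CPM. RNA of celf1 (EDEN-BP in Xenopus laevis), which directs deadenylation, measured 162 and 138 CPM in the stage 3 libraries and 89.7 and 85.8 CPM in the stage 6 libraries (log2 change -0.77 ± 0.09, edgeR adjusted p = 7.1e-09). The largest fall in the list was that of tacc3 (maskin in Xenopus laevis), from 1711 to 495 CPM (log2 change -1.79).

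Deadenylation and decay genes showed the same split, with 32 of 83 (38.6%) lower and 29 (34.9%) higher and a median of -0.07, and with total counts alone 21 lower and 44 higher. The lower members included the deadenylase genes pan2 and pan3 (-0.70 and -0.71), the silencing scaffold gene tnrc6a (-1.22) and the nonsense-decay helicase gene upf1 (-1.20). The AU-rich element binding genes zfp36l2.1 and zfp36l2.2, whose reads may be shared, changed by -0.81 and -0.86. The higher members included the CCR4-NOT genes cnot3 and cnot11 (1.02 and 1.13), ythdf2, a reader of methylated adenosine (1.17), upf2 (1.53) and the decapping activator lsm1 (1.39). Upf1 and upf2, partners in one decay complex, thus changed in opposite directions, from 512 to 224 CPM and from 19.9 to 57.5 CPM.

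Germ plasm and vegetally localised RNAs were lower in 24 of 46 cases (52.2%) and higher in 8 (17.4%), with a median of -0.31, and with total counts alone 15 were lower and 15 higher. RNA of nanos1, the translational repressor of germ plasm, measured 91.2 and 76.6 CPM in the stage 3 libraries and 51.3 and 46.2 CPM in the stage 6 libraries (log2 change -0.78 ± 0.11, edgeR adjusted p = 1.2e-07). RNA of vegt, the vegetal T-box factor of endoderm and mesoderm, measured 293 and 298 CPM in the stage 3 libraries and 439.6 and 422 CPM in the stage 6 libraries and so was among the risers (log2 change 0.54 ± 0.05, edgeR adjusted p = 1.7e-11). RNA of gdf1 (Vg1), the vegetal TGF-beta ligand, measured 209 and 223 CPM in the stage 3 libraries and 143 and 119.9 CPM in the stage 6 libraries (log2 change -0.72 ± 0.08, edgeR adjusted p = 1.3e-10). The localised RNAs dnd1, grip2, sybu and trim36 changed by -0.74, -1.06, -1.17 and -1.48, and dazl by -0.44, a call that total counts alone removed (-0.09, adjusted p = 0.43). The vasa gene ddx4 rose by 0.27 and tdrd3 by 1.39. The fitted change of slain1 (-3.23) came from under 1 CPM and was not called without stage 3 replicate 2 or without stage 6 replicate 1 (adjusted p of 1.0 and 0.16).

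In the maternal Wnt pathway, which sets the dorsal side, 24 of 61 genes (39.3%) were lower and 13 (21.3%) higher, with a median of -0.15, and 11 lower and 21 higher with total counts alone. RNA of wnt11b, the maternal Wnt ligand, measured 222 and 219 CPM in the stage 3 libraries and 138 and 122 CPM in the stage 6 libraries (log2 change -0.76 ± 0.07, edgeR adjusted p = 1.1e-12), and fzd7, a maternal Frizzled receptor gene, fell from 528 to 307 CPM (log2 change -0.78). The effector ctnnb1 (beta-catenin) measured 2265 and 2283 CPM in the stage 3 libraries and 1846 and 1939 CPM in the stage 6 libraries (log2 change -0.27 ± 0.05, edgeR adjusted p = 3.9e-06), and this direction turned with total counts alone (0.09, adjusted p = 0.067). The risers rnf43, a ligase that removes Frizzled receptors, and pygo2, a nuclear cofactor, went from 2.06 to 7.74 CPM and from 3.57 to 14.1 CPM (log2 changes of 1.92 and 1.98). The paralogue wnt11 measured 1.41 and 0.718 CPM in the stage 3 libraries and 0.985 and 0.737 CPM in the stage 6 libraries and was not called (adjusted p = 0.65).

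Maternal transcription factors had slightly more rises than falls, 30 of 87 (34.5%) against 24 (27.6%), with a median of 0.01, and 48 against 8 with total counts alone. RNA of otx1 measured 51.8 and 46.3 CPM in the stage 3 libraries and 90.1 and 90.1 CPM in the stage 6 libraries (log2 change 0.88 ± 0.10, edgeR adjusted p = 2.1e-09). RNA of e2f1 measured 646 and 655 CPM in the stage 3 libraries and 475 and 467 CPM in the stage 6 libraries (log2 change -0.47 ± 0.10, edgeR adjusted p = 0.00054). The call on e2f1 was lost with total counts alone (-0.11, adjusted p = 0.42), and that on otx1 was not. The related e2f3 and e2f4 rose by 0.54 and 0.98, lin9 of the MuvB complex by 1.16, the mitotic gene activator foxm1 by 1.37, the cAMP response factor creb1 by 0.99 and the pluripotency factor pou5f3.2 by 1.03. Smad1 and zic2 changed by -0.54 and -0.61.

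Pou5f3.3, sox3 and foxh1, maternal factors known for their part in zygotic gene activation, were not called under the TMM scaling. RNA of pou5f3.3 measured 825 and 779 CPM in the stage 3 libraries and 793 and 760.0 CPM in the stage 6 libraries (log2 change -0.05, edgeR adjusted p = 0.52). RNA of sox3 measured 650.0 and 643 CPM in the stage 3 libraries and 608 and 594 CPM in the stage 6 libraries (log2 change -0.10, edgeR adjusted p = 0.066). RNA of foxh1, the DNA-binding partner of Smad2, measured 830.2 and 824 CPM in the stage 3 libraries and 855 and 780.5 CPM in the stage 6 libraries (log2 change -0.02, edgeR adjusted p = 0.93). Total-count scaling called all 3 higher, at 0.31, 0.25 and 0.34, so their direction depends on the scaling. In E2F1 MO embryos, under the TMM scaling, the 3 were called lower, at -0.30, -0.16 and -0.30 (adjusted p of at most 0.0037). The test of the difference between the WT and E2F1 MO changes, given below, called none of the 3. The oocyte TBP gene tbpl2 changed by -0.44, a call that was lost without stage 3 replicate 1 (adjusted p = 0.11), without stage 6 replicate 1 (0.078) and with total counts alone (0.71).

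Most early mesendoderm and organizer genes, a list that includes the first zygotic transcripts of this embryo, had few or no counts. The summed mean level of the list was still 1390 CPM at stage 3 and 1220 CPM at stage 6. Of 76 tested, 37 had no count at either stage, 50 had at most 3 counts over all 4 libraries and 14 stood at 1 CPM or more at stage 3 or 6. Nodal5, sia1 and ventx1.1 had no count in any of the 4 libraries, which allows at most the 3-count floor of 0.138 to 0.193 CPM, and nodal6 had 2 counts in 1 stage 6 library. In all, 11 members had counts at stage 6 and none at stage 3, with at most 7 counts each. Of this list 5 were called higher and 5 lower (6.58% each), and the called members at 1 CPM or more included bambi, dand5 and hes7.1. Bambi, a BMP pseudoreceptor gene, fell from 402 to 246 CPM (log2 change -0.71), dand5, a Nodal antagonist gene, from 502 to 324 CPM (log2 change -0.63), and hes7.1 rose from 93.5 to 153 CPM (log2 change 0.71). The calls on otx2, with 7 counts in 1 library and none in the others, and sox17b.1, under 1 CPM throughout, were lost without single libraries.

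Chromatin genes fell more often than they rose, with 41 of 77 (53.2%) lower and 13 (16.9%) higher and a median of -0.36, against 27 lower and 25 higher with total counts alone. Over all genes tested 23.5% were lower and 24.5% higher, and among genes near the median level of this list 47.0 and 26.5%. Along with dnmt1, its partner uhrf1 went from 1586 to 951 CPM (log2 change -0.74). The Polycomb gene eed changed by -1.04 and its partner ezh2 by 0.56, in opposite directions. The histone chaperone gene nasp changed by -0.90 and the deacetylase gene hdac1 by -0.56, whereas the chaperone gene nap1l1 measured 111 and 112 CPM in the stage 3 libraries and 296 and 318 CPM in the stage 6 libraries (log2 change 1.46 ± 0.07, edgeR adjusted p = 3.9e-22). Among 24 histone genes, 7 (29.2%) were lower and 1 (4.17%) higher, although the median log2 change of the list, most of which was not called, was 0.52. Total-count scaling gave 5 higher and 5 lower. The fallers included h2ac1 (-0.89) and h2ac17 (-0.76) and the riser was the somatic linker histone h1-1 (0.83), from 4.93 to 8.77 CPM. Replication-dependent histone mRNAs end without a poly(A) tail in somatic cells, and reads of near-identical copies may be split, so these levels are uncertain.

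The RNAs of ribosome assembly rose as a broad group. In this family, added after the fit had been seen, 95 of 133 genes (71.4%) were higher and 21 (15.8%) lower, with a median of 0.72, and with total counts alone 112 were higher and 8 lower. RNA of nop2, an rRNA methyltransferase, measured 7.57 and 7.83 CPM in the stage 3 libraries and 25.6 and 27.2 CPM in the stage 6 libraries (log2 change 1.77 ± 0.10, edgeR adjusted p = 1.8e-18). RNA of dkc1, the pseudouridine synthase dyskerin, measured 27.97 and 23.3 CPM in the stage 3 libraries and 65.4 and 80.8 CPM in the stage 6 libraries (log2 change 1.51 ± 0.11, edgeR adjusted p = 3.6e-13). RNA of nol8 measured 19.9 and 19.3 CPM in the stage 3 libraries and 72.4 and 74.6 CPM in the stage 6 libraries (log2 change 1.91 ± 0.08, edgeR adjusted p = 1.2e-22). Stage 6 libraries were above stage 3 libraries in each, by more than 2-fold. Nom1 and gnl3l rose by 1.99 and 1.83, and the box C/D methyltransferase gene fbl (fibrillarin) by 0.80. The abundant nucleolar chaperone gene npm1 went the other way, from 1782 to 1072 CPM (log2 change -0.73, edgeR adjusted p = 6.5e-12).

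Genes for the ribosomal proteins themselves did not follow. Of 79 tested, 43 (54.4%) were lower and 3 (3.80%) higher, with a median of -0.37, and with total counts alone 14 were lower and 13 higher. The largest falls were those of rpl10a (-0.94), rpl28 (-0.91), rps26 (-0.84) and rpl21 (-0.83), and rps26 measured 44.3 and 43.3 CPM in the stage 3 libraries and 24.3 and 24.8 CPM in the stage 6 libraries. The 3 risers were rplp0, rpl14 and rps25. RNA of rplp0, a protein of the ribosomal stalk, measured 40.99 and 38.6 CPM in the stage 3 libraries and 71.3 and 69.1 CPM in the stage 6 libraries (log2 change 0.82 ± 0.11, edgeR adjusted p = 7.8e-08), and that of rpl14 rose by 0.57. Near-identical copies of these genes may share reads.

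Other housekeeping groups also had more rises than falls. Of 34 aminoacyl-tRNA synthetase genes, a family added after the fit had been seen, 22 (64.7%) were higher and 4 (11.8%) lower, with a median of 0.54, and none was called lower with total counts alone, when 27 were higher. Rars1 went from 1.45 to 5.37 CPM (log2 change 1.89) and hars2 from 10.7 to 25.6 (log2 change 1.26), and among the fallers was the lysine enzyme gene kars1 (-0.49), whose call total counts alone removed. Of 35 proteasome subunit genes 21 were higher and 3 (8.57%) lower, with a median of 0.44, and with total counts alone 30 were higher and 0 lower. The ATPase subunits psmc1 and psmc4 rose by 1.36 and 1.31, whereas psmc6 of the same ring changed by -0.37, a call lost with total counts alone. RNA of psmc4 measured 10.1 and 11.1 CPM in the stage 3 libraries and 27.1 and 25.8 CPM in the stage 6 libraries (log2 change 1.31 ± 0.13, edgeR adjusted p = 1.1e-11). Respiratory chain genes were higher in 28 of 83 cases (33.7%) and lower in 14 (16.9%), with a median of 0.19, and mitochondrial ribosomal protein genes higher in 27 of 77 (35.1%) and lower in 22 (28.6%), with a median of 0.11. In both, rises outnumbered falls under total counts alone too, by 48 to 4 and by 43 to 11. Under the TMM scaling their summed mean levels fell, however, from 3000 to 2730 CPM and from 2240 to 1860 CPM. Those of the synthetase and proteasome lists rose, from 1190 to 1320 CPM and from 1350 to 1540 CPM. With relative log expression factors the mitochondrial ribosomal list turned, to 24 higher and 26 lower. Among genes near the median level of these lists, 40.9% were higher and 29.3% lower, so the share higher was no larger in either list. Uqcrc2, a subunit of complex III, went from 3.91 to 9.82 CPM (log2 change 1.33), and mrpl24 from 1.75 to 6.59 CPM (log2 change 1.92).

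The remaining families, all but 2 of them added after the fit had been seen, were mixed. Over all genes tested, 24.5% were higher and 23.5% lower. Of 175 genes with znf or zscan names, zinc-finger proteins that mostly bind DNA, 88 (50.3%) were higher and 27 (15.4%) lower, with a median of 0.37, and with total counts alone 115 and 17. Zscan2 and znf180 had log2 changes of 2.05 and 1.91, while the summed mean level of the list went from 10900 to 10100 CPM. Spliceosome genes had 43 of 79 (54.4%) lower and 23 (29.1%) higher, but 21 lower and 40 higher with total counts alone. Nuclear pore genes had 15 of 28 lower and 7 higher, and 7 lower and 13 higher with total counts alone, and within the pore ndc1 changed by -1.58 and nup37 by 1.65. Mediator and Integrator genes had 20 of 47 (42.6%) higher and 14 (29.8%) lower, with ints12 (1.69) and med27 (1.43) among the risers. Under total-count scaling 34 were higher and 4 lower. Translation initiation factors had 17 of 48 (35.4%) higher and 18 (37.5%) lower, and with total counts alone 29 were higher and 7 lower. The stress kinase gene eif2ak3 (PERK) was at -1.39 and the exchange factor gene eif2b1 at 1.64. Genes of the COG, TRAPP and exocyst tethers and SNAREs had 29 of 88 (33.0%) higher and 23 (26.1%) lower, and 53 higher and 9 lower under total-count scaling. Trappc10 (2.06), stx18 (2.13) and cog4 (1.90) were among the risers. Solute carrier genes had 75 of 258 (29.1%) lower and 47 (18.2%) higher, but 33 lower and 83 higher with total counts alone. Nuclear receptor genes had 7 of 36 (19.4%) higher and 3 (8.33%) lower, both below the shares over all genes. Of the 36, 11 were under 1 CPM at both stages. Under total-count scaling 17 were higher and 2 lower. Cytokinesis, actin and tubulin genes had 31 of 69 (44.9%) lower and 19 (27.5%) higher, and 18 lower and 31 higher with total counts alone, and the beta-actin gene actb measured 21.2 and 20.8 CPM in the stage 3 libraries and 34.1 and 28.9 CPM in the stage 6 libraries (log2 change 0.58 ± 0.10, edgeR adjusted p = 4.6e-06). Heat-shock, immediate early and damage response genes had 14 of 53 (26.4%) higher and 13 (24.5%) lower, close to the shares over all genes, while relative log expression factors gave 11 higher and 18 lower and total counts alone 27 and 5. Of these, the chaperone gene hspa8 went from 102 to 311 CPM (log2 change 1.61).

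**Figure D3:**
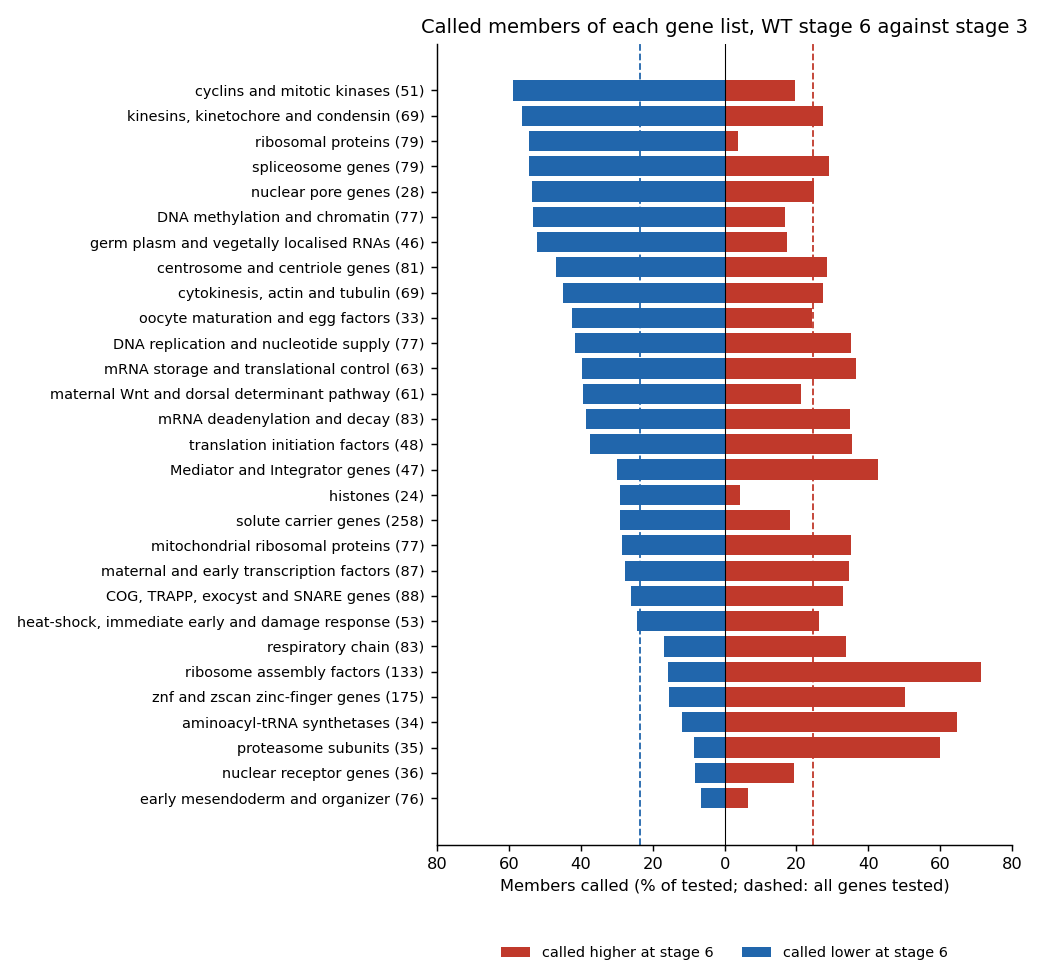
Share of tested members called lower (blue, to the left) and higher (red, to the right) at stage 6 against stage 3 in each gene list, with the number tested in brackets; dashed lines mark 23.5% lower and 24.5% higher over all genes tested. Cyclins and mitotic kinases reach 58.8% lower and ribosome assembly factors, a list added after the fit had been seen, 71.4% higher. Among genes near the median level of the first list 62.6% were lower, and near that of the second at most 40.9% were higher.

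The direction of change went with the level of the RNA. To keep level and change apart, genes were ranked by their mean CPM per kilobase of gene length in the E2F1 MO libraries of stages 3 and 6, which hold none of the WT counts, and the 11031 genes at 1 CPM or more there were cut into deciles. In decile 10, the top, with a median level of 148 CPM per kilobase, 83.0% were called lower and 7.16% higher in WT, and the median log2 change was -0.52. In decile 4, with a median of 5.90 CPM per kilobase, 48.9% were higher and 20.3% lower, with a median change of 0.30. Decile 1 had 24.8% higher and 8.15% lower, with a median change of 0.21, which was below that of decile 4. With total counts alone decile 10 had 53.3% lower and 20.3% higher and decile 4 8.70% lower and 68.3% higher, so the zero line moved. Another scaling shifts the log2 changes of all genes by nearly the same amount, so the order of the deciles' medians was bound to be kept. Genes called lower had a median level of 37.8 CPM per kilobase, those called higher 7.85 and those not called 5.49. Gene length showed no such trend, with median lengths of 2779 bases for genes called lower, 2838 for those called higher and 2808 for those not called.

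Lists of abundant RNAs therefore have to be read against the decile that holds their median level, although single members can lie in other deciles. The median level of the cyclin and mitotic kinase list was 49.5 CPM per kilobase and that of the kinesin, kinetochore and condensin list 65.9, which lie in decile 9, where the median change of all genes was -0.33 and 62.6% were lower. The kinesin list, with 56.5% lower and a median of -0.40, lay close to that decile, and the cyclin list, with 58.8% lower, had a median of -0.57. Spliceosome genes had a median level of 95.2 CPM per kilobase, in decile 10, and a median change of -0.21. Chromatin and nuclear pore genes, at 42.8 and 41.8 CPM per kilobase, had 53.2 and 53.6% lower against 47.0% in decile 8. Germ plasm genes, at 22.4, had 52.2% lower against 36.8% in decile 7. Deadenylation and decay genes, at 25.8, had 38.6% lower and 34.9% higher, close to the 36.8 and 34.8% of decile 7. Ribosomal protein genes had a median level of 25.1 and a median change of -0.37, where the genes of decile 7 had -0.03 and 36.8% lower. Ribosome assembly genes had a median level of 18.5, at the border of deciles 6 and 7, and a median change of 0.72 against 0.07 and -0.03. Proteasome genes, at 20.9 CPM per kilobase, and synthetase genes, at 6.97, had medians of 0.44 and 0.54 against -0.03 and 0.30 for the genes of the same deciles. Zinc-finger genes, at 5.42 CPM per kilobase, had 50.3% higher, 15.4% lower and a median of 0.37. That list lay close to decile 4, with 48.9% higher, 20.3% lower and a median of 0.30. Respiratory chain and mitochondrial ribosomal protein genes, at 13.3 and 13.6 CPM per kilobase, had medians of 0.19 and 0.11 against 0.07 in decile 6. Their shares higher were 33.7 and 35.1% against 40.9%, and their shares lower 16.9 and 28.6% against 29.3%. These are descriptions of the lists, with no test.

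**Figure D4:**
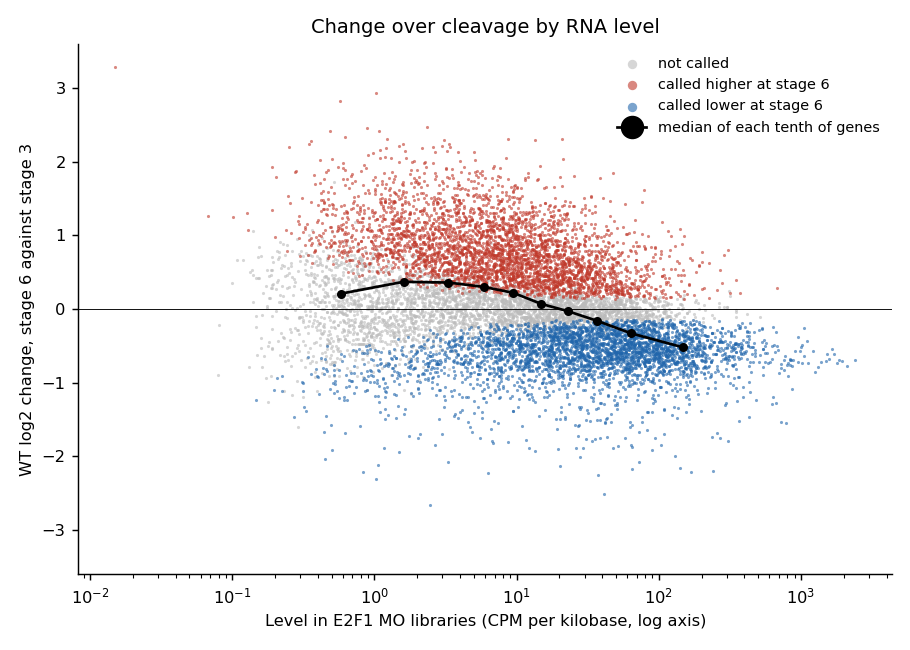
WT log2 change from stage 3 to stage 6 (y axis) against level in the E2F1 MO libraries (x axis, CPM per kilobase, log axis); each point is a gene at 1 CPM or more there, red if called higher, blue if called lower and grey if not called. The black line joins the medians of the 10 deciles, rises from 0.21 in decile 1 to 0.37 in decile 2 and then runs down to -0.52 in decile 10.

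The same course could be read in a second set of libraries. In E2F1 MO embryos, stage 6 against stage 3 called 7653 genes (47.6%), 4009 higher and 3644 lower, in a contrast that shares no library with the WT one. Of the genes called higher in WT, 3335 were also called higher there, which is 84.6% of the WT and 83.2% of the E2F1 MO calls. Of those called lower in WT, 3197 were also called lower, which is 84.5 and 87.7%. In opposite directions 3 genes were called, 2 of them higher in WT. Across 11031 genes the changes had a Pearson r of 0.912, a description across genes, which are not independent replicates. In E2F1 MO embryos there were 10 higher and 31 lower among the cyclins and mitotic kinases, 21 higher and 42 lower among the kinesins and kinetochore genes, 98 higher and 18 lower among the ribosome assembly factors, 26 higher and 2 lower among the proteasome subunits, and 12 higher and 22 lower among the ribosomal proteins. In other lists the larger side differed from that in WT. There were 27 higher and 28 lower among the maternal transcription factors and 18 higher and 16 lower among the translation initiation factors. Of the heat-shock, immediate early and damage response genes 13 were higher and 16 lower. The early mesendoderm genes, with 5 higher and 5 lower in WT, had 3 higher and 8 lower. The leading WT changes had counterparts, with kif11 at -2.30, cep135 at -2.36, aurka at -1.81, dpp8 at 2.25, rrp15 at 2.52 and mybl2 at 1.72 in E2F1 MO embryos. Gata6 did not, at 0.42 (edgeR adjusted p = 0.73), but the difference between its WT and E2F1 MO changes was not called (edgeR adjusted p = 0.38).

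The difference between the WT and E2F1 MO changes was tested in the same fit and called 10 genes (0.0623%), while 1396 genes (8.69%) had an unadjusted p under 0.05. RNA of pole2, a subunit of DNA polymerase epsilon, measured 177 and 128 CPM in the stage 3 libraries and 84.9 and 90.3 CPM in the stage 6 libraries of WT and 79.5 and 79.3 CPM and then 95.9 and 88.01 CPM in those of E2F1 MO embryos. It fell in WT and had a log2 change of 0.21 in E2F1 MO embryos, a difference of -1.01 ± 0.14, edgeR adjusted p = 6.4e-05. RNA of gnl1, a GTPase gene, measured 87.9 and 84.9 CPM in the stage 3 libraries and 164 and 160.2 CPM in the stage 6 libraries of WT and 173 and 154 CPM and then 205 and 209.7 CPM in those of E2F1 MO embryos, a difference of 0.57 ± 0.08, edgeR adjusted p = 5.4e-05. In both genes the stage 3 libraries of WT and E2F1 MO were further apart than the stage 6 libraries. The values of 7 more of the 10 are given further on, among the results for a closer look.

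**Figure D5:**
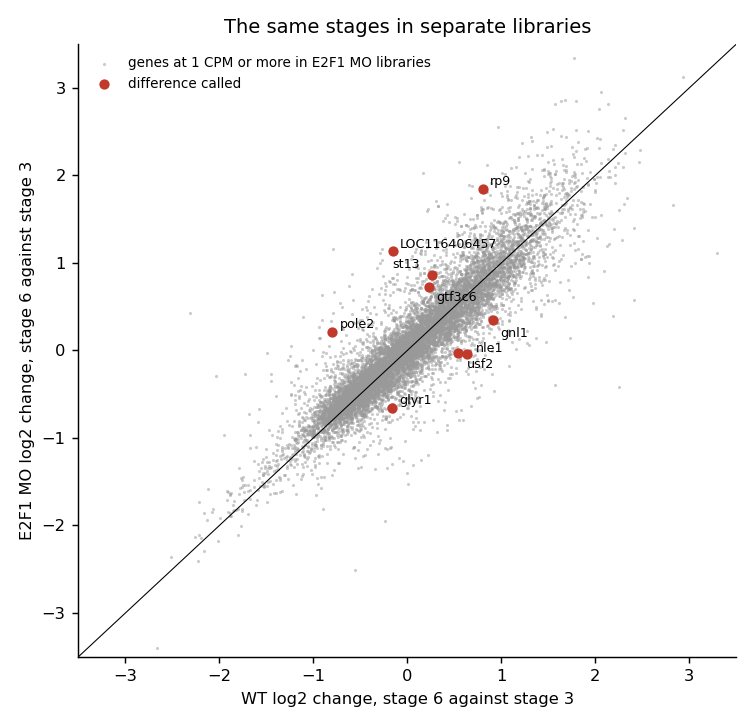
Log2 change from stage 3 to stage 6 in E2F1 MO embryos (y axis) against that in WT (x axis); grey points are the genes at 1 CPM or more in the E2F1 MO libraries and red points 9 of the 10 genes whose difference was called. The line marks equal change, and the cloud follows it with a Pearson r of 0.912.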

How the data were processed

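The values deposited by the authors are raw counts (whole reads for each gene, not normalized), with gene lengths. The submitters' processing notes name fastp, STAR 2.7.0e, featureCounts 2.0.1 and deepTools. For build, annotation and strand setting, nothing was given in the sources used here. Coordinates are therefore left out, and overlapping, antisense and near-identical genes are uncertain to that extent. Of 28778 names, 26459 matched RefSeq symbols, used for names alone.

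The test was that of edgeR 4.0.16 (R 4.3.3, limma 3.58.1). filterByExpr (minimum count of 10) kept 16064 genes. All 44 libraries entered a robust quasi-likelihood fit with TMM scaling and 1 mean per group (22 residual degrees of freedom, biological coefficient of variation of 6.11%). Benjamini-Hochberg adjustment ran over all genes tested, and genes were called at an adjusted p under 0.05. Standard errors are the log2 change (its size) divided by the root of the F statistic. Alternatives were other scalings and filters, DESeq2 1.42.0, fewer libraries and a replicate block. The fit was tested on simulated counts with known changes.

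Replicates differed by more than sampling noise (chi-square per gene of 4.87 and 3.73), so each library counts once. The standard errors come from the fit and include its estimate of the spread between libraries, while the floors cover counting error only.

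Members and lists were chosen with earlier results of these data known, and 11 families were added after the fit was seen. Named genes were the 12 largest rises and falls (at least 5 CPM, no overlap), the 5 largest gains and losses in CPM, up to 4 called members of each list, and a set of known maternal genes. Others, such as plk1, cdk1, clspn, nop2 and npm1, were chosen for their roles after their values were seen. A few genes that met these rules are not reported here.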

Additional observations from a re-analysis of the deposited data

Results flagged for a closer look

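For 10 genes the change from stage 3 to stage 6 differed between WT and E2F1 MO embryos by the test of the difference (edgeR adjusted p under 0.05 over 16064 genes), and 9 of them are given here. The WT minus E2F1 MO difference in log2 change was -1.01 ± 0.14, edgeR adjusted p = 6.4e-05 for pole2 and 0.57 ± 0.08, edgeR adjusted p = 5.4e-05 for gnl1, and these calls held in every alternative run. It was 0.57 ± 0.10, edgeR adjusted p = 0.0049 for the transcription factor gene usf2, and the adjusted p was 0.051 without WT stage 3 replicate 2 and 0.087 without E2F1 MO stage 3 replicate 1. It was -1.29 ± 0.23, edgeR adjusted p = 0.0063 for LOC116406457, -1.05 ± 0.21, edgeR adjusted p = 0.025 for rp9, -0.60 ± 0.11, edgeR adjusted p = 0.012 for the co-chaperone gene st13, 0.67 ± 0.13, edgeR adjusted p = 0.02 for nle1, 0.50 ± 0.10, edgeR adjusted p = 0.02 for glyr1 and -0.50 ± 0.10, edgeR adjusted p = 0.035 for gtf3c6, and each of these lost its call without at least 3 of the 8 libraries in turn. With total counts alone the adjusted p was 0.071 for gtf3c6 and 0.052 for rp9, and with no filter on low counts it was 0.062 for gtf3c6.

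At stage 3 several of them already stood apart between WT and E2F1 MO embryos. RNA of usf2 measured 52.8 and 46.9 CPM in the stage 3 libraries and 72.3 and 72.4 CPM in the stage 6 libraries of WT and 185 and 168 CPM and then 177 and 168 CPM in those of E2F1 MO embryos. RNA of nle1 measured 18.4 and 19.4 CPM in the stage 3 libraries and 27.5 and 31.1 CPM in the stage 6 libraries of WT and 72.04 and 59.6 CPM and then 64.00 and 64.5 CPM in those of E2F1 MO embryos. RNA of rp9 measured 16.4 and 9.39 CPM in the stage 3 libraries and 20.8 and 24.00 CPM in the stage 6 libraries of WT and 5.72 and 5.70 CPM and then 21.5 and 19.7 CPM in those of E2F1 MO embryos, and without WT stage 3 replicate 1 the difference in its change was -0.60 (adjusted p = 0.46). The part of the injection, the clutch or the library in these values was not tested.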

How the results depend on the processing

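The count of 7726 calls stayed between 7665 and 8136 with other scaling, filters, DESeq2, fewer libraries in the fit and the replicate block, and lay at 6662 to 7095 when 1 library was left out, with 3220 to 3579 higher and 3432 to 3516 lower and 48.3 to 50.4% of calls higher. Testing for a change beyond 1.5-fold left 2279 genes, 1450 higher and 829 lower (63.6% higher). Scaling by total counts alone gave 6264 higher and 1872 lower (77.0% higher) in WT and 6077 higher and 1834 lower in E2F1 MO embryos, where leaving out 1 library gave 6597 to 7017 calls, 3410 to 3636 higher and 3187 to 3462 lower. The 10 calls on the difference became 16 with relative log expression factors, 91 with DESeq2, 61 with no filter on low counts and 2 to 25 with 1 library left out.

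The replicate block gave 7666 calls in WT, 7622 in E2F1 MO embryos and 11 on the difference. The deviations of same-numbered WT replicates had a correlation of 0.0533 over all genes tested and 0.0726 over genes at a mean of 5 CPM or more. The labels do not give the clutch, so whether same-numbered libraries are paired is not known.

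Of the gene values, 3204 of 3379 kept their direction and side of the threshold. Those that turned did so with total counts alone, at 0.25 for sox3, 0.34 for foxh1, 0.31 for pou5f3.3, 0.089 for ctnnb1, 0.054 for topbp1 and 0.20 for glyr1, save for otx2, whose 7 counts lay in stage 6 replicate 2 and whose change ran from 0 to 5.91 with 1 library left out. Calls of RNAs under 1 CPM (apc2, bbc3, hsp90aa1.2, nr4a3, slain1, slc4a2, slc24a4, sox17b.1 and stx19) were lost without single libraries. Sall1, atp5pb, mrpl2, slc25a34 and znf512b also lost theirs. At this depth RNAs below about 0.2 CPM could not be told from none.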
